A study of Rattus norvegicus with 6 samples.

Results

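The genes described here are 37 components of the unfolded protein response and the integrated stress response, listed by name from their known roles. They are read in the renal cortex of rats given tris(2-chloroethyl)phosphate (TCEP), a chlorinated organophosphate flame retardant. For 34 of the 37 genes the arrays held a probe whose transcript accession matched a RefSeq gene, out of 15284 genes with such a probe. Manf, Edem1 and Derl2 are not analysed here. All 34 were well above background on all 6 arrays, and all 34 were among the 11804 genes tested. The brightest probe stood for each gene.

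The TCEP group was 3 male Sprague-Dawley rats of the Crl:CD(SD) stock, bought at 5 weeks of age and dosed with TCEP at 400 mg/kg/day for 4 weeks. The vehicle group was 3 male rats of the same stock and purchase age that received corn oil over the same period. Total RNA of each rat's renal cortex was labelled with Cy3 and hybridised to its own 1-colour Agilent array. The labels name no genetic change and give all rats the same basal diet, so the groups differ by label only in the dose given.

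Each array had 41457 to 42733 probes well above background (67.2% to 69.3% of 61657), and at most 1 probe was saturated. The 3 TCEP arrays lay on slide 2 and the 3 vehicle arrays on slide 1, each with its own scan, so slide and treatment cannot be told apart. All 8 proximal tubule markers and all 6 podocyte markers were detected on all 6 arrays. The intercalated cell marker list averaged -0.16 to -0.13 (log2, against each gene's mean) in TCEP rats and 0.10 to 0.18 in vehicle rats. Of its 6 genes 5 were lower with TCEP, and the median difference was -0.27. All 6 podocyte markers (median -0.22) and all 6 collecting duct markers (median -0.23) were also lower. So were all 3 tested distal convoluted and connecting tubule markers (median -0.42). Neutrophil and erythroid markers (6 of 6 tested, median -0.27) and macrophage and monocyte markers (6 of 7, median -0.13) were lower as well. In these lists vehicle replicate 2 was the highest array for 6 and 5 genes. Of the proximal tubule markers 5 were higher and 3 lower (median 0.03). In whole cortex, fewer cells of a type and less RNA per cell cannot be told apart. The part of these cell types in the values below was not tested.

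Secretory and membrane proteins fold in the endoplasmic reticulum (ER). Unfolded protein there activates 3 membrane sensors: ATF6, which is cut to release a transcription factor; IRE1α, the product of Ern1, which splices Xbp1 mRNA; and PERK, the product of Eif2ak3, which phosphorylates the translation factor eIF2α. The first 2 branches raise chaperones and degradation factors. The PERK branch shares eIF2α with kinases that sense amino acid lack, haem lack and double-stranded RNA, and the programme that follows, led by ATF4, is called the integrated stress response. ATF4 targets include amino acid enzymes and transporters, and prolonged signalling brings in CHOP, the product of Ddit3, a factor linked to cell death. The proximal tubule, which makes up most of the cortex, carries a heavy load of membrane transporters. Splicing of Xbp1, cutting of ATF6 and phosphorylation of eIF2α are not read by an expression array.

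No stress response gene passed the test between TCEP and vehicle cortex. With limma and Benjamini-Hochberg adjustment over all 11804 genes, 0 of the 34 had an adjusted p under 0.05, and the share of all tested genes was also 0%. The adjusted p-values of the 34 ran between 0.535 and 0.996, and the smallest of any gene on the array was 0.181. At an unadjusted p under 0.05 there were 2 of 34 genes (5.88%), against 8.33% of all genes. One was higher with TCEP (Hspa13; 4.21% of all genes were higher at this threshold) and one was lower (Ern1; 4.12% of all genes were lower).

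The differences were small and ran both ways. Of the 34 genes 21 had a positive difference and 13 a negative one, on the log2 scale of TCEP minus vehicle. Their median was 0.02, beside 0.01 over all tested genes. The range was -0.33 for Ern1 to 0.39 for Asns, and 29 of 34 lay within 0.2 of 0. The 95% confidence interval stayed within a 1.5-fold change either way for 28 genes (82.4%), against 76.5% of all genes. It stayed within a 2-fold change for 33, the exception being Ddit4. The 6 genes whose intervals reached past 1.5-fold were Creld2, Ero1b, Herpud1, Trib3, Ddit4 and Asns.

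**Figure D1:**
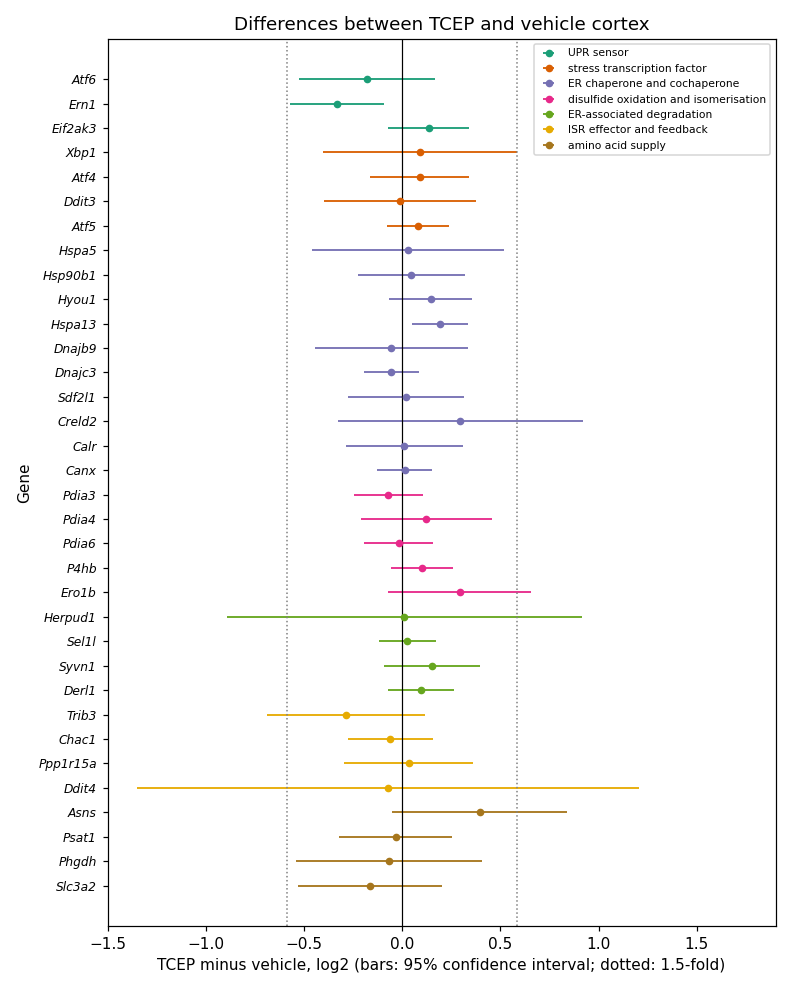
Difference of each stress response gene, TCEP minus vehicle, in log2 units on the horizontal axis, with genes down the page in the colour of their role. Points are fitted differences over 3 TCEP and 3 vehicle arrays, bars are 95% confidence intervals and dotted lines mark 1.5-fold; only the bars of Ern1 (lower) and Hspa13 (higher) do not cross 0, and that of Ddit4 is the widest.

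The sensors came first in the pathway and had the lowest median of the groups, -0.18 over 3 genes. On the scale used here, log2 signal over the array's 75th percentile, Ern1 had -4.87, -5.04 and -4.96 on the TCEP arrays, against -4.75, -4.66 and -4.47 on the vehicle arrays. All TCEP values lay below all vehicle values. The difference was -0.33 ± 0.10 (SE, n = 3 each; limma adjusted p = 0.535), or 0.794-fold. The probe is dim on this array, although well above background on each of the 6. Eif2ak3 had 0.08, -0.05 and 0.18 on the TCEP arrays, against -0.13, -0.07 and 0.01 on the vehicle arrays. Its groups overlapped and it differed by 0.13 ± 0.08. A second, dimmer Eif2ak3 probe had -3.60, -3.80 and -3.54 with TCEP, against -3.95, -3.97 and -3.86 with vehicle, with every TCEP value above every vehicle value and a difference of 0.28. The mean of both probes gave 0.21, past the unadjusted threshold of 0.05 with an adjusted p of 0.658. Atf6 had 1.03, 1.48 and 1.51 with TCEP, against 1.58, 1.51 and 1.46 with vehicle. Its difference of -0.18 ± 0.14 came with 1 low array, TCEP replicate 1. It also depended on the probe: a detected Atf6 probe nearly as bright gave -0.04, and a much dimmer one 0.01. With the mean over a gene's probes, Atf6 and the sensor median were both at -0.068. With the brightest probes but without TCEP replicate 1 the sensor median was -0.03, so with these probes that array sets most of it.

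The stress transcription factors had a median difference of 0.09 over 4 genes. Xbp1, the substrate of IRE1α and activator of chaperone and degradation genes, had 2.42, 2.42 and 2.499 on the TCEP arrays, against 2.10, 2.14 and 2.82 on the vehicle arrays. Ddit3 had 2.72, 2.76 and 2.67 on the TCEP arrays, against 2.56, 2.54 and 3.09 on the vehicle arrays. In both genes the TCEP values were close together, 2 vehicle rats were below them and vehicle replicate 3 was above them. The differences were 0.09 ± 0.20 for Xbp1 and -0.01 ± 0.16 for Ddit3. Atf4, the main factor of the integrated stress response, whose output is set largely by translation, had 4.81, 4.90 and 4.58 with TCEP, against 4.69, 4.58 and 4.75 with vehicle. Its difference of 0.09 ± 0.10 was smaller than the spread among the rats. Atf5, a relative of Atf4 translated by the same kind of mechanism, had -0.22, -0.32 and -0.32 with TCEP, against -0.36, -0.41 and -0.32 with vehicle. Its groups did not overlap, by under 0.01 between the nearest arrays, and it differed by 0.08 ± 0.06.

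The ER chaperones and their partners, 10 genes, had a median difference of 0.02. Hspa5, which encodes BiP, the main Hsp70 chaperone of the ER and the usual readout of the response, had 5.05, 5.38 and 5.47 on the TCEP arrays, against 5.02, 5.14 and 5.66 on the vehicle arrays. The groups overlapped over nearly their whole range. The difference was 0.03 ± 0.20, and its interval ran from 0.727-fold to 1.43-fold. Hspa13, an Hsp70 relative found in microsomes, had 1.28, 1.30 and 1.31 with TCEP, against 1.05, 1.13 and 1.12 with vehicle. Every TCEP array was above every vehicle array, by 0.19 ± 0.06 (limma adjusted p = 0.547), or 1.14-fold, a small difference between very even groups.

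Hyou1, an ER chaperone related to Hsp70 and Hsp110 and a nucleotide exchange factor of BiP, had 3.36, 3.27 and 3.33 with TCEP, against 3.06, 3.15 and 3.32 with vehicle, a difference of 0.15 ± 0.09. Creld2, an ER protein with disulfide isomerase activity and a common marker of ER stress, had 0.75, 0.71 and 0.86 with TCEP, against 0.03, 0.36 and 1.04 with vehicle. Its vehicle rats alone spanned over 1 log2 unit, with an SD of 0.52 against 0.08 among TCEP rats. The difference was 0.29 ± 0.25. Dnajb9, a BiP cochaperone that restrains IRE1α, had 0.64, 0.72 and 0.68 with TCEP, against 0.67, 0.46 and 1.07 with vehicle. Here too the highest array was vehicle replicate 3, and the difference was -0.06 ± 0.16.

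Dnajc3, the BiP cochaperone also called p58IPK, had 2.23, 2.19 and 2.20 with TCEP, against 2.29, 2.25 and 2.25 with vehicle. Its groups did not overlap, yet the difference was only -0.05 ± 0.06. In limma the standard error of so even a gene draws on the spread of all genes. Calr and Canx, the lectin chaperones of glycoproteins, differed by 0.01 ± 0.12 and 0.01 ± 0.06. Hsp90b1, which encodes GRP94, the ER member of the Hsp90 family, differed by 0.05 ± 0.11, and Sdf2l1, a BiP partner, by 0.02 ± 0.12. The Calr arrays had 3.21, 3.15 and 3.41 with TCEP, against 3.05, 3.41 and 3.28 with vehicle, so the groups covered the same range.

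The 5 genes of disulfide oxidation and isomerisation had a median difference of 0.10. P4hb, which encodes protein disulfide isomerase, had 4.65, 4.73 and 4.61 with TCEP, against 4.52, 4.57 and 4.60 with vehicle. Its groups did not overlap and the difference was 0.10 ± 0.06. Ero1b, an oxidase that recharges protein disulfide isomerase, had -2.83, -3.18 and -2.67 with TCEP, against -3.32, -3.07 and -3.16 with vehicle. In 2 TCEP rats it was above all vehicle rats and in 1 it was among them, and the difference was 0.29 ± 0.15. The 3 other isomerases, Pdia3, Pdia4 and Pdia6, differed by -0.07, 0.12 and -0.02, with standard errors of 0.07 to 0.14. Pdia6 was nearest to 0, with 3.94, 3.87 and 3.89 with TCEP, against 3.82, 4.003 and 3.93 with vehicle.

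By their brightest probes, all 4 measured genes of ER-associated degradation had small positive differences, with a median of 0.06. None was at an unadjusted p under 0.05. The sign depended on the probe. A dimmer detected probe gave -0.08 for Derl1, -0.07 for Syvn1 and -0.05 for Herpud1, against 0.05 for Sel1l. Syvn1, the ubiquitin ligase HRD1, had 2.77, 2.52 and 2.64 with TCEP, against 2.42, 2.42 and 2.63 with vehicle, a difference of 0.15 ± 0.10. Derl1, a membrane component of the export channel, had 3.18, 3.25 and 3.34 with TCEP, against 3.12, 3.20 and 3.17 with vehicle, a difference of 0.09 ± 0.07. Sel1l, the partner of HRD1, differed by 0.03 ± 0.06. None of the 3 moved as far as 1.5-fold at either end of its confidence interval.

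Herpud1, a membrane protein of the degradation complex that is strongly induced by ER stress, was the least even of this group. It had 3.97, 4.23 and 3.64 on the TCEP arrays, against 3.64, 3.43 and 4.75 on the vehicle arrays. Vehicle replicate 3 was over 1 log2 unit above the other two vehicle rats, and the TCEP rats lay between. The fitted difference was 0.01 ± 0.37, with an interval from 0.539-fold to 1.88-fold. A second Herpud1 probe showed the same array highest, with 1.96, 2.25 and 1.86 with TCEP, against 1.75, 1.61 and 2.85 with vehicle.

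The effectors and feedback genes of the integrated stress response had a median difference of -0.07 over 4 genes. Trib3, a pseudokinase induced by ATF4 and CHOP, had -4.36, -4.57 and -4.70 with TCEP, against -4.07, -4.12 and -4.58 with vehicle, a difference of -0.29 ± 0.17. The Trib3 probe is dim, although well above background on each array. Chac1, which breaks down glutathione, had -1.17, -1.02 and -1.12 with TCEP, against -0.95, -0.99 and -1.19 with vehicle, a difference of -0.06 ± 0.09. For both genes vehicle replicate 3 lay apart from the other vehicle rats on the low side, the opposite of Xbp1, Ddit3 and Herpud1. Ppp1r15a, which encodes GADD34, the phosphatase subunit that reverses eIF2α phosphorylation, had 0.82, 0.41 and 0.78 with TCEP, against 0.50, 0.67 and 0.74 with vehicle. It differed by 0.03 ± 0.13.

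Ddit4, which encodes REDD1, an inhibitor of the growth kinase complex mTORC1 that also answers to hypoxia and glucocorticoids, had 2.63, 3.14 and 1.26 with TCEP, against 2.94, 1.95 and 2.36 with vehicle. No group ordering can be read from it. Its difference was -0.07 ± 0.52, with an interval from 0.392-fold to 2.31-fold, so a 2-fold change either way was not detectable in these 6 rats. Its spread within groups, an SD of 0.77, was at the 98th percentile of all tested genes.

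The 4 genes of amino acid supply did not form 1 pattern, and their median difference was -0.05. Asns, which encodes asparagine synthetase, a classic ATF4 target, had -0.28, -0.76 and -0.996 on the TCEP arrays, against -1.11, -1.03 and -1.07 on the vehicle arrays. The groups did not overlap, but the gap was carried mostly by TCEP replicates 1 and 2, since replicate 3 was close to the vehicle rats. The SD was 0.36 with TCEP and 0.04 with vehicle. The difference of 0.39 ± 0.18, or 1.31-fold, was the highest of the 34 genes and did not pass the test (limma adjusted p = 0.643). Leaving out TCEP replicate 1 gave 0.19. Leaving out TCEP replicate 3 gave 0.55, the one omission of a single array that put Asns at an unadjusted p under 0.05.

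Phgdh and Psat1 encode 2 enzymes of serine synthesis, and Slc3a2 the heavy chain shared by several amino acid exchangers. Phgdh had 6.03, 6.53 and 6.74 with TCEP, against 6.64, 6.37 and 6.48 with vehicle. Psat1 had 5.37, 5.79 and 5.70 with TCEP, against 5.67, 5.64 and 5.65 with vehicle. Slc3a2 had 3.79, 4.13 and 4.36 with TCEP, against 4.32, 4.19 and 4.25 with vehicle. In all 3 genes TCEP replicate 1, the array where Asns was highest, was the lowest of the 6. The differences were -0.07 ± 0.19, -0.03 ± 0.12 and -0.16 ± 0.15. Proximal tubule markers were low on the same array: their mean was -0.16 against each gene's average, and 5 of 8 had their lowest value there. On the other 5 arrays that mean lay between -0.07 and 0.10. Other marker lists were low there too: podocyte markers averaged -0.31 (5 of 6 lowest), collecting duct markers -0.22 (4 of 6 lowest), distal convoluted and connecting tubule markers -0.27, and neutrophil and erythroid markers -0.51. The lists of fat beside the kidney (0.37), adrenal cortex beside the kidney (0.17) and thick ascending limb (0.11) averaged above 0 there. The part of these lists in the 3 genes was not tested. Without TCEP replicate 1 the median of the amino acid genes was 0.11.

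Read across the 34 genes, groups that did not overlap were found for 6 (17.6%). TCEP lay above vehicle for Atf5, Hspa13, P4hb and Asns (11.8%, against 8.63% of all genes), and below for Ern1 and Dnajc3 (5.88%, against 6.97%). The 6 come from 5 different roles in the pathway.

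**Figure D2:**
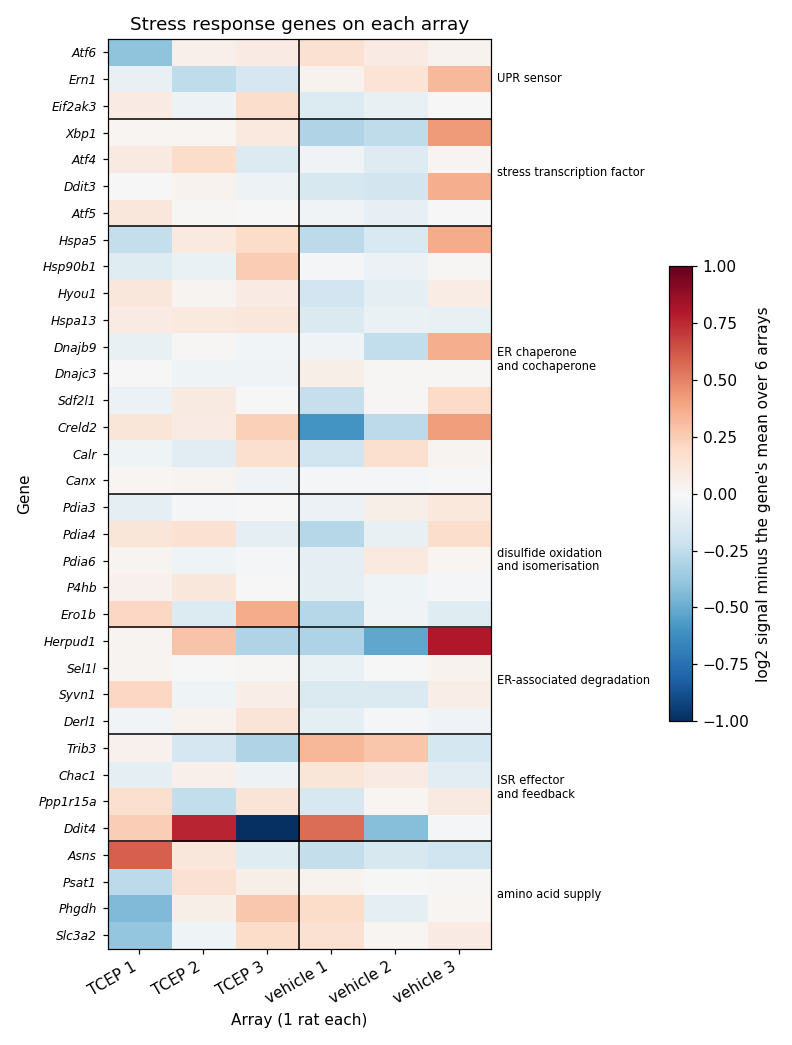
Each row is a stress response gene and each column an array (1 rat each), TCEP arrays left of the line and vehicle arrays right of it. Colour is the log2 signal minus that gene's mean over the 6 arrays, from blue (-1) to red (1); vehicle 3 is red for Xbp1, Ddit3, Hspa5, Dnajb9, Creld2 and Herpud1, and vehicle 1 is blue for most genes in the middle of the map.

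A structure shared by many of the genes lay between rats of the vehicle group. Vehicle replicate 3 held the highest value of 11 of the 34 genes (32.4%), against 16.3% of all tested genes, and vehicle replicate 1 held the lowest value of 16 (47.1%), against 12.7%. The 11 genes were Ern1, Xbp1, Ddit3, Hspa5, Dnajb9, Sdf2l1, Creld2, Pdia3, Pdia4, Herpud1 and Sel1l. Of the 10 ER chaperones 4 were highest in vehicle replicate 3 and 6 lowest in vehicle replicate 1. None of the amino acid genes was highest in vehicle replicate 3. Genes are not independent of each other within a rat, so these shares describe the arrays and carry no test.

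Cytosolic heat shock genes stood apart on the same array. Of 10 tested, 9 were highest in vehicle replicate 3, where their mean was 0.32 above each gene's average, against -0.20 to 0.04 on the TCEP arrays and -0.13 to -0.04 on the other two vehicle arrays. Of the collecting duct markers 4 of 6 were highest there. Their mean was -0.22 to -0.01 on the TCEP arrays, against 0.30 in vehicle replicate 3, 0.27 in vehicle replicate 1 and -0.26 in vehicle replicate 2. Markers of fat beside the kidney were lowest there for 3 of 4 tested genes. The part of these in the stress response values was not tested.

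Among the 18 alternatives run, leaving out vehicle replicate 3 moved the median of the 34 genes furthest, to 0.10 in place of 0.02. The array was singled out after its values had been seen. Genes at an unadjusted p under 0.05 numbered 6 in place of 2: Xbp1 at 0.32, Hyou1 at 0.22, Hspa13 at 0.20 and Creld2 at 0.58 were higher with TCEP, and Ern1 at -0.25 and Trib3 at -0.45 were lower. This was 17.6% of the 34, against 6.92% of all tested genes in the same fit, whose median difference was 0.01. Still 0 of 34 passed the adjusted threshold. Herpud1 was then 0.42, Hspa5 0.22, Ddit3 0.17 and Dnajb9 0.11, none of them at an unadjusted p under 0.05. This fit sets 3 TCEP rats against 2 vehicle rats. Without vehicle replicate 1 the median difference was -0.01, and 1 gene was at an unadjusted p under 0.05. The share of all genes was not counted for that fit, so this count describes these genes alone.

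**Figure D3:**
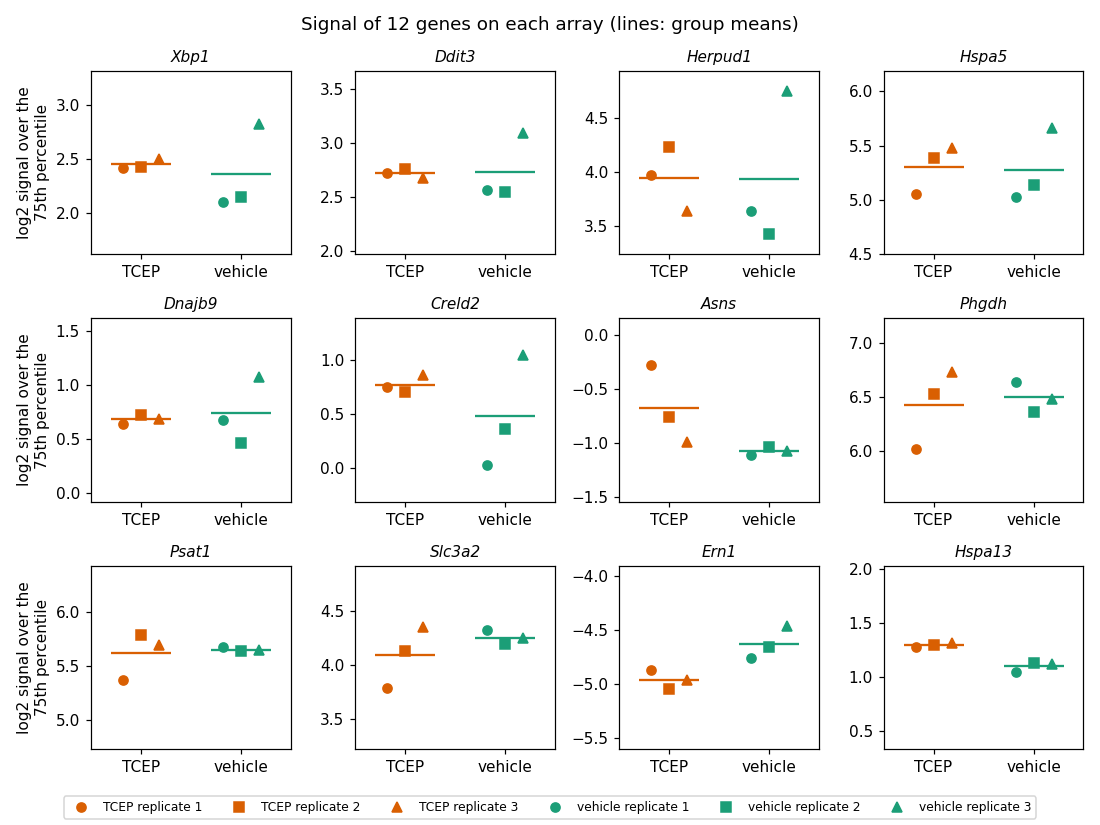
Log2 signal over the array's 75th percentile (vertical axes, all spanning the same range) of 12 stress response genes, TCEP rats left and vehicle rats right, with replicates 1, 2 and 3 as circle, square and triangle and lines at group means. The vehicle triangle is the highest point for Xbp1, Ddit3, Herpud1, Hspa5, Dnajb9 and Creld2, and the TCEP circle is the highest for Asns and the lowest for Phgdh, Psat1 and Slc3a2.

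The genes also differed in how even they were within groups. The median SD within groups was 0.16 over the 34 genes and 0.13 over all tested genes. Of the 34, 8 had a spread above the 75th percentile of all genes and 9 below the 25th. Ddit4 and Herpud1 were at the 98th and 96th percentiles. Dnajc3 and Canx, with SDs of 0.02, were among the most even. The standard error of the difference was 0.06 for Dnajc3, Canx, Sel1l and Hspa13, against 0.20 for Hspa5 and Xbp1 and 0.37 for Herpud1.

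**Figure D4:**
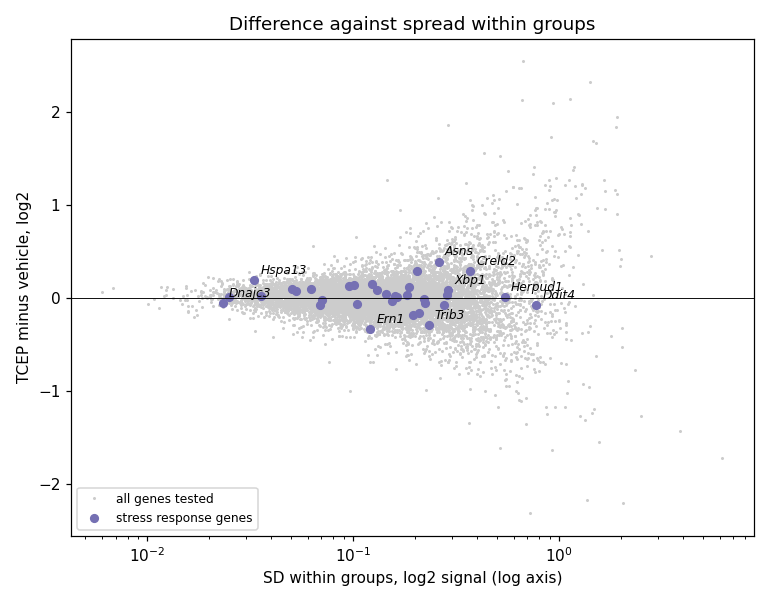
Difference TCEP minus vehicle (log2, vertical axis) against the SD within groups (log2 signal, log axis) for all 11804 tested genes in grey and the 34 stress response genes in purple. Herpud1 and Ddit4 lie far right near 0, and Hspa13 and Dnajc3 lie far left.

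Several genes had more than 1 detected probe, 17 of 34, and in 10 of these the probes had differences of opposite sign. Most such differences were near 0. For Hyou1 the dimmer probe had -3.17, -3.35 and -3.19 with TCEP, against -3.49, -3.36 and -1.36 with vehicle, so vehicle replicate 3 alone gave its difference of -0.50, where the bright probe gave 0.15. For Hsp90b1 the dimmer probe gave -0.21, with 1.01, 1.22 and 1.31 with TCEP, against 1.21, 1.497 and 1.44 with vehicle. Of the 3 Chac1 probes 1 was not well above background on any array. Another was so on 2 TCEP arrays and 0 vehicle arrays, and its difference was 0.60, opposite in sign to that of the bright probe. Both are left out of the counts above.

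Because many of these genes share control elements, their promoters were searched for the letters of 4 known elements on both strands. RefSeq promoters of the rat build GRCr8, 250 bases before to 50 after each gene's start, were at hand for 31 of the 37 genes among 33469 promoters. The ER stress response element (ERSE), bound by ATF6 and XBP1 with the factor NF-Y, is CCAAT, 9 free bases and CCACG. These letters were in 22 of all promoters (0.0657%) and in those of 8 stress response genes (25.8% of the 31): Calr, Canx, Creld2, Dnajc3, Ero1b, Hsp90b1, Hspa5 and Xbp1. They are shown because they cover both the steady and the uneven genes above. Stretches are upstream of the start, 5′ to 3′ on the gene's strand, and capitals mark the fixed letters of the element, which reads CGTGG and ATTGG where it lies on the other strand.
Hspa5, GRCr8 chr3:38452953-38453011, plus strand: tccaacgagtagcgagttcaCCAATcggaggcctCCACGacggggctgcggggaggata
Xbp1, GRCr8 chr14:84604538-84604596, plus strand: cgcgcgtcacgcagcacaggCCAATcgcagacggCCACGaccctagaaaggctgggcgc
Creld2, GRCr8 chr7:121789219-121789277, plus strand: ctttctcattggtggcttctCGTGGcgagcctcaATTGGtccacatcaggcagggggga
Dnajc3, GRCr8 chr15:102432514-102432572, plus strand: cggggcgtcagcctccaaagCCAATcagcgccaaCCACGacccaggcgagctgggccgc
Canx, GRCr8 chr10:35158049-35158107, minus strand: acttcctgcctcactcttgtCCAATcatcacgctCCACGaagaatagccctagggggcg
Calr, GRCr8 chr19:40213117-40213173, plus strand: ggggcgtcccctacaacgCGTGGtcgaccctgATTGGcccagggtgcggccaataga
Ero1b, GRCr8 chr17:92941438-92941496, plus strand: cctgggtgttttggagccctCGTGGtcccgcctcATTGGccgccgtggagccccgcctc
Hsp90b1, GRCr8 chr7:23012327-23012385, minus strand, the nearer of 2 copies: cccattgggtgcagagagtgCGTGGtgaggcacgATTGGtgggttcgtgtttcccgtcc

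The 8 genes with these letters had differences between -0.05 (Dnajc3) and 0.29 (Creld2), 7 above 0 and 1 below, with a median of 0.04. The other 21 tested genes with a promoter had a median of 0.03. Without vehicle replicate 3 the medians were 0.14 and 0.12. Hspa5, Xbp1 and Creld2 were highest in vehicle replicate 3, while Dnajc3 and Canx, with the same letters, hardly varied. The match describes the sequence and is no evidence of binding in these rats.

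A variant, ERSE-II, is ATTGG, 1 free base and CCACG. It was in 0.0508% of all promoters and in those of Herpud1 and of Hyou1, where it was found in 2 copies. The ATF4 response element (CARE), searched as TTGCATCA, was in 0.795% of all promoters, and among the 31 in those of Herpud1 and Chac1. Both Herpud1 elements are shown since vehicle replicate 3 stood over 1 log2 unit above the other vehicle rats in this gene, and Chac1 because it holds the CARE letters and was lowest on that array.
Herpud1 ERSE-II, GRCr8 chr19:10614801-10614851, minus strand: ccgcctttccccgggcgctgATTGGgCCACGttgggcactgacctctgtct
Herpud1 CARE, GRCr8 chr19:10614864-10614911, minus strand: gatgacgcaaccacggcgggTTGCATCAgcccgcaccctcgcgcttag
Hyou1 ERSE-II, GRCr8 chr8:53602674-53602724, plus strand, with the CGTGG letters first: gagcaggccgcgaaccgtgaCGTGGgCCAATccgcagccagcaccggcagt
Chac1 CARE, GRCr8 chr3:126795944-126795991, plus strand: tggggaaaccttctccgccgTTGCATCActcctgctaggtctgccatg

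The fourth element, the XBP1 site TGACGTGG, was in 0.595% of all promoters and, among the 31, in that of Hyou1, where it overlaps the ERSE-II letters shown. No letters of any of the 4 were found in the windows of Asns, Ddit3 or Trib3, which says only that these letters are not in these stretches.

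Other parts of the pathway, and cytosolic heat shock and mitochondrial proteostasis genes beside it, were read through 129 further genes, listed by role. Of these 110 were tested. None passed the adjusted threshold. At an unadjusted p under 0.05, 6 were higher with TCEP (5.45%, against 4.21% of all genes) and 5 lower (4.55%, against 4.12%), shares near those of all genes. The median difference was 0.04. Among 13 other ER degradation factors, 2 were higher: Ufd1, a partner of the p97 ATPase, at 0.18 ± 0.06, and Ubxn4, an ER anchor of p97, at 0.21 ± 0.08. Among 20 translocon and oligosaccharyltransferase genes, Sec63, a cofactor of protein import, was higher at 0.19 ± 0.06, and Sec61b, a channel subunit, came next at 0.12 ± 0.05. Ero1a, the more widely expressed relative of Ero1b, was lower at -0.24 ± 0.08, and next among the 12 other folding factors was the isomerase Pdia5 at -0.36 ± 0.26.

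Among 18 other ATF4 and CHOP targets, 2 were higher and 1 lower at this threshold. Of all genes 4.21% were higher and 4.12% lower. Gdf15, a stress cytokine, had 0.45, -0.51 and -0.13 with TCEP, against -1.42, -0.56 and -0.68 with vehicle, a difference of 0.82 ± 0.32 (limma adjusted p = 0.587). Pycr1, an enzyme of proline synthesis, had -4.98, -4.35 and -4.19 with TCEP, against -5.04, -5.37 and -5.28 with vehicle, a difference of 0.72 ± 0.22 (adjusted p = 0.547). Its probe is about as dim as that of Ern1, although well above background on each array, and TCEP replicate 1 was close to vehicle replicate 1. Atf3, a stress-induced transcription factor, had -0.97, -1.18 and -1.52 with TCEP, against -0.41, -0.78 and -0.69 with vehicle, a difference of -0.60 ± 0.17 (adjusted p = 0.535). These targets of one programme thus had differences of both signs, as the stress response genes themselves had.

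Of 12 cytosolic aminoacyl-tRNA synthetases, a set known to answer to ATF4, Cars1 alone was at an unadjusted p under 0.05 (all genes: 8.33%). It had -0.13, -0.33 and -0.29 with TCEP, against -0.54, -0.62 and -0.56 with vehicle, a difference of 0.32 ± 0.08 (adjusted p = 0.535). Iars1 came next at 0.16 ± 0.08, and the median of the 12 was 0.02. Of 4 tested amino acid transporters Slc43a1 was lower at -0.24 ± 0.09, and its array values ran between -4.46 and -4.07. The glycine transporter gene Slc6a9 came next at 0.19 ± 0.26. Among 12 genes for eIF2 kinases, the phosphatase and eIF2B none was at that threshold, the nearest being Eif2ak1 at -0.14 ± 0.09 and Eif2b5 at 0.10 ± 0.07.

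Outside the ER, Hsp90ab1, a cytosolic Hsp90, had 5.29, 5.29 and 5.25 with TCEP, against 5.51, 5.63 and 5.71 with vehicle, and was lower at -0.34 ± 0.07 (adjusted p = 0.533). Clpx, the unfoldase of a mitochondrial protease, was lower at -0.22 ± 0.07. Next in these lists were Hsp90aa1, the other cytosolic Hsp90, at -0.23 ± 0.09 and Dnaja3, a mitochondrial cochaperone, at 0.09 ± 0.08. The median was -0.02 over 10 cytosolic heat shock genes and 0.00 over 9 genes of mitochondrial proteostasis.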

How the data were processed

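Each of the 6 files is the scanner output of 1 array, and per the file headers the authors' Agilent Feature Extraction 10.7.1.1 (10.7 per the submitters' processing notes) gave each spot a background-corrected, detrended intensity. The deposited flags (of another kind than the intensities) mark control, outlier, saturated and well-above-background spots. The authors' deposited value table, an alternative here, holds linear intensities of the same arrays divided by a constant near each array's 75th percentile, checked against the scanner values (column medians 0.103 to 0.107); why that constant was chosen is not given in the sources used here. Here each intensity was divided by its array's 75th percentile over the 61657 non-control probes (12 outlier probes left out) and taken to log2. Probes were named by accession through a RefSeq table (27460 probes, 44.5%); the brightest probe stood for a gene. A gene was tested where its probe was flagged detected throughout either group. limma 3.58.1 (lmFit and eBayes, R 4.3.3) compared 3 TCEP with 3 vehicle rats, and p-values were adjusted by Benjamini-Hochberg over all 11804 genes. The fit was run on simulated data with independent noise and no slide difference, so that run says nothing of a slide effect. The number of arrays limits precision. The series' design text calls the rats biological replicates. Members and lists were chosen with earlier results of these data known. All members were named; of each further list, the 2 genes with the smallest p and any at an unadjusted p under 0.05. Alternatives: quantile, spike-in or no scaling, normexp (offset 50) background correction, probe filters and averages, the authors' values, a replicate block, variance models, array weights and leaving out each array.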

Additional observations from a re-analysis of the deposited data

How the results depend on the processing

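With limma, 0 of the 34 genes passed the adjusted threshold in the 18 alternatives, where the smallest adjusted p of any of them was 0.266, and 0 genes on the whole array did. Of 612 fitted differences, 53 had the other sign. Some of the 612 could not turn. The probe filters, the fit of each probe, the replicate block and trended robust variance return the reported differences of these genes. In every alternative 16 genes kept their sign, and the 18 that did not differed by at most 0.15 in size as reported. The cause of these turns was not tested, except that leaving out an array means fewer rats. Quantile normalisation gave -0.0035 for Sdf2l1, -0.017 for Calr, -0.0036 for Canx and -0.017 for Herpud1. No scaling gave 0.029 for Ddit3, 0.024 for Pdia6 and 0.0080 for Psat1, and centring on the 8 spike-in probes gave 0.011 for Ddit3 and 0.0061 for Pdia6. The median of all genes was 0.0047 with quantile normalisation, 0.032 with spike-in centring and 0.050 with no scaling. Normexp on the median spot signals, chosen because the files hold no mean signals, gave -0.071 for Hspa5, -0.0026 for Sdf2l1, -0.063 for Calr, -0.024 for Herpud1, -0.012 for Syvn1, 0.095 for Chac1 and 0.019 for Ddit4. It also gave medians of -0.054 for the sensors, 0.0041 for the disulfide genes and -0.16 for the amino acid genes. The mean over a gene's probes gave 0.045 for Ddit3, -0.080 for Hsp90b1, -0.18 for Hyou1, -0.061 for Sdf2l1, -0.022 for Canx and -0.018 for Herpud1, and a sensor median of -0.068. Array weights gave 0.057 for Ddit3, -0.018 for Ppp1r15a and 0.036 for Psat1. The share of all genes at an unadjusted p under 0.05 was counted only as reported and without vehicle replicate 3. The other counts that follow describe these genes alone. The number of genes at an unadjusted p under 0.05 was 2 as reported, 1 with no scaling, 0 with spike-in centring and 1 with trended robust variance, and it was 3 with normexp (P4hb added), with the mean over a gene's probes (Eif2ak3 added) and with array weights (Trib3 added). Leaving out 1 array at a time it ran from 1 (without vehicle replicate 1) to 6 (without vehicle replicate 3). The median over the genes then ran from -0.0081 to 0.10, that of the sensors from -0.26 to -0.025, of the disulfide genes from 0.010 to 0.13 and of the amino acid genes from -0.15 to 0.11. For single genes these ranges were -0.039 to 0.32 for Xbp1, -0.11 to 0.17 for Ddit3, -0.096 to 0.22 for Hspa5, -0.070 to 0.12 for Hsp90b1, -0.19 to 0.11 for Dnajb9, -0.092 to 0.12 for Sdf2l1 and -0.089 to 0.093 for Calr. They were -0.067 to 0.025 for Pdia6, -0.24 to 0.42 for Herpud1, -0.00017 to 0.048 for Sel1l, -0.041 to 0.16 for Ppp1r15a, -0.47 to 0.47 for Ddit4, -0.12 to 0.089 for Psat1 and -0.22 to 0.13 for Phgdh. With the replicate number as a block, 0 genes passed the adjusted threshold. The median there, 0.02, equals the reported one by design, since each group holds the same replicate numbers. Deviations of same-numbered rats had correlations of -0.15, -0.10 and 0.23, and those of rats with unlike numbers ran from -0.33 to 0.37. With 3 rats in each group these values cannot tell whether same-numbered rats share more than a number.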

Other observations

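The letters of the ER stress response element were also in the promoters of 7 tested genes outside the list. Birc5, which encodes survivin, a protein of cell division and an inhibitor of apoptosis, was higher with TCEP at 0.46 ± 0.15 (limma adjusted p = 0.559), and its TCEP arrays lay above its vehicle arrays. Hnrnpa3, an RNA-binding protein, differed by 0.20 ± 0.09, Derl3, a relative of Derl1, by 0.06 ± 0.44, and Zfand2a, Ppm1l, Ankmy2 and Zfp57 by 0.05, 0.09, -0.02 and -0.13. Birc5 was the only one of the 7 at an unadjusted p under 0.05, where 8.33% of all tested genes were.

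The letters of the ATF4 response element were in the promoters of 64 tested genes, whose median difference was 0.01, with 6 at an unadjusted p under 0.05 (9.38%, against 8.33% of all tested genes). The synthetase genes Aars1, Cars1, Iars1, Mars1, Nars1, Tars1 and Yars1 hold them, as do Pycr1 and Nupr1. Pycr1 was at 0.72 and Nupr1, a small stress-induced nuclear protein, at -0.66, 2 genes with the same letters and differences of opposite sign. Nupr1 was not at an unadjusted p under 0.05. These genes were named after their values had been seen.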
